A study of Homo sapiens with 6 samples.

Results

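The 10 genes described here are 9 immediate early genes, FOS, FOSB, JUN, JUNB, EGR1, EGR3, NPAS4, ARC and NR4A1, together with BDNF, which codes for brain-derived neurotrophic factor. They were taken from the count table as the entries whose Ensembl ID maps to these symbols, and all 10 of 10 were found among its 61853 entries. The day 30 group consists of 3 libraries of arcuate neurons, a neuron type of the hypothalamus, differentiated in culture from H9 cells. The day 0 group consists of 3 libraries of H9 cells before differentiation; H9 is an established line of human embryonic stem cells. The submitters' stated aim was to follow factors that process ribosomal RNA precursors, so the genes below are read from the same libraries for another purpose.

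Both groups are the same cell line and carry no allele or transgene in the labels. Day 30 cultures had passed through serum replacement and N2 medium with 4 additions, SB431542, LDN-193189, purmorphamine and sonic hedgehog, then N2 medium with B-27 and DAPT, and had been detached with accutase and replated once with a ROCK inhibitor. From day 17 their N2 and B-27 medium also held BDNF protein at 20 ng/ml, which the day 0 cells did not receive. The effects of this BDNF and of differentiation on the genes below cannot be told apart, since every day 30 culture had both. The labels describe no depolarising, stimulating or silencing step, so the values are levels in cultures as harvested and not responses to a stimulus. They do not say whether the 3 libraries of a day came from separate cultures, so p-values measure only the spread between these libraries, which may be technical. The RNA came from whole cultures, and a smaller number of cells of a type and less RNA per cell cannot be told apart.

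Immediate early genes are transcribed within minutes of a stimulus, by factors such as CREB, SRF and MEF2 that are already present in the cell, and need no new protein synthesis. In neurons the usual trigger is calcium entry during synaptic activity, and in dividing cells many of the same genes respond to growth factors. FOS and JUN family proteins pair to form the AP-1 transcription factor, EGR1 and EGR3 are zinc finger factors, NR4A1 is an orphan nuclear receptor, and NPAS4 is a basic helix-loop-helix factor known for its selective induction by calcium in neurons. ARC acts at the synapse itself, where it drives the removal of AMPA receptors, and BDNF is a secreted growth factor that signals through the receptor TrkB and, in the hypothalamus, is known for restraining food intake.

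Promoter sequences are shown because the CRE half-site, the core of the site that CREB binds, and the CArG box, the site that SRF binds, are the elements through which several of these genes are known to be induced. They are from RefSeq (GRCh38.p14), run 5′ to 3′ on the strand of the gene, and are the bases upstream of a transcription start that lie in no annotated exon. Capitals mark a CRE half-site (TGACG, or CGTCA on the other strand) or a CArG box (CC, 6 bases of A or T, GG). The stretches are chr14:75278678-75278773 for FOS, chr19:45467846-45467994 for FOSB, chr19:12791336-12791485 for JUNB, chr5:138465329-138465478 for EGR1, chr11:66420854-66421003 for NPAS4, all on the + strand, and chr11:27701634-27701771 on the - strand for BDNF.
FOS: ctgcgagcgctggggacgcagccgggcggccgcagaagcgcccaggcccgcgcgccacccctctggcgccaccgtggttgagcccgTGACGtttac
FOSB: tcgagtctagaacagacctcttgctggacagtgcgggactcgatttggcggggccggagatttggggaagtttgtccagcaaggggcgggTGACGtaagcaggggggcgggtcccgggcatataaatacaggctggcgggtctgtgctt
JUNB: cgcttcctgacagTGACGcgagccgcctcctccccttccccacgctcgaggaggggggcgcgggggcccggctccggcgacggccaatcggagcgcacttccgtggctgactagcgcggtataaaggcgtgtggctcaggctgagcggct
EGR1: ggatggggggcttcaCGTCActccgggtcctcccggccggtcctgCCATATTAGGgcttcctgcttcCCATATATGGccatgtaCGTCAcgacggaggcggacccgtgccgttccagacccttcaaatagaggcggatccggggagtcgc
NPAS4: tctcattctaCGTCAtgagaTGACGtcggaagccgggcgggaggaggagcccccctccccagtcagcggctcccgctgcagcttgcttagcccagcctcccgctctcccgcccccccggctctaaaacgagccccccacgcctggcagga
BDNF: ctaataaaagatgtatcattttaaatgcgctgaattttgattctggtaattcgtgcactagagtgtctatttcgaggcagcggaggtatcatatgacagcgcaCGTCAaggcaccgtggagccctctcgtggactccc

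Windows of 250 bases before the start were searched on both strands in 8 of the 10 genes. A CRE half-site was found in 7 of these 8, FOS, FOSB, JUN, JUNB, EGR1, NPAS4 and BDNF, against 24.9% of 27305 genes with such a window. For FOS it lay 60 to 64 bases before the start, and for FOSB 56 to 60 bases before it. NPAS4 had a pair of half-sites, 136 to 140 and 126 to 130 bases before the start of the window printed. BDNF has several annotated starts, and its half-site was in the window of only 1 of them. Within these windows EGR1 was the 1 gene of the 8 with a CArG box, and it had 2 of them as well as 2 CRE half-sites. Of all genes, 1.44% had a CArG box. Bases further upstream than 250 were not searched, so the other genes may have a CArG box there. The full palindromic CRE, TGACG followed directly by TCA, which holds the half-site, was in 0 of the 8 genes and in 2.03% of all genes, and the AP-1 site TGANTCA was in 0 of the 8 and in 8.06% of all genes. A TATA motif, TATAAA, was found before FOS, FOSB and JUNB, that is in 3 of 8, against 13.0% of all genes. The EGR site, GCGNG followed directly by GGCG, was found before EGR1 and BDNF, that is in 2 of 8, against 10.1% of all genes. No CRE half-site or CArG box was found in the NR4A1 windows. JUN is not printed because its window lies in an annotated exon, and no sequence of EGR3 or ARC was used here. These matches are letters in a window and say nothing of binding, and genes with several annotated starts had more windows in which a match could fall.

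The total count was 9688839, 12924842 and 5013643 for day 30 replicates 1, 2 and 3, against 7758817, 7178453 and 8794008 for day 0 replicates 1, 2 and 3. Levels are given as CPM, the count scaled to the total of its library. Genome-wide log2 CPM correlated at 0.970 to 0.985 within day 30, at 0.979 to 0.983 within day 0, and at 0.594 to 0.614 between days. The labelled cell types matched their markers: 6 of 6 neuron markers and 6 of 6 hypothalamic or arcuate markers were higher on day 30. POMC was at 1559 CPM on day 30 against 0.986 CPM on day 0. Lower on day 30 were 6 of 6 markers of pluripotent cells and 6 of 6 of dividing cells. Of all genes tested, 39.8% passed as higher and 36.8% as lower. The hypothalamic or arcuate markers summed to 0.796 to 2.06 CPM per library on day 0. They passed the filter on low counts only because of day 30, so they could enter the test only by being higher there. The reverse holds for some markers of pluripotent and dividing cells, such as POU5F1 and AURKB. NKX2-1 and OTP had 0 counts on day 0. Day 30 replicate 3, which was also the shallowest library, stood apart in the summed level of 6 mesenchymal markers. That sum was 173, 653 and 4644 CPM in day 30 replicates 1, 2 and 3, and 227, 319 and 283 CPM in day 0 replicates 1, 2 and 3. Of these markers 4 were tested and 3 passed as higher on day 30, and DCN had 0 counts on day 0. In day 30 replicate 3, COL1A1 alone reached 1814 CPM and COL3A1 902 CPM. The 3 of 6 astroglial markers that could be tested were lower on day 30. Of these, AQP4 passed the filter on low counts only because of day 0. The other tested astroglial markers, GJA1 and SLC1A3, were at 869 and 40.1 CPM in the day 0 stem cells. The 6 microglial markers summed to 1.28 to 2.09 CPM on day 30 against 0.682 to 2.86 CPM on day 0, with AIF1 and C1QA at 0 on day 30.

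All 10 genes were higher on day 30, in the sense that each of the 3 day 30 libraries exceeded each of the 3 day 0 libraries. Differences were tested with edgeR's quasi-likelihood test over all genes, with p-values adjusted by Benjamini-Hochberg and a threshold of 0.05. Of the 10 genes, 9 had enough counts to be tested, and 9 of 9 were higher on day 30. These counts stand against a large background, since the libraries of the 2 days differ in most genes. Of 18040 genes tested, 76.6% passed, 39.8% as higher and 36.8% as lower on day 30. Over the same genes, 43.5% had day 30 levels wholly above those of day 0 and 35.9% wholly below them. Of the 9 genes, 8 passed as higher with a fitted change of 2-fold or more, against 29.7% of all genes tested. The test was against no change and not against 2-fold. ARC and EGR1 lay near that line, with lowest log2 changes of 0.81 for ARC and 0.84 for EGR1 in other settings. FOSB lost its call with DESeq2. The median log2 change was 1.34 over the 9 tested genes and 0.08 over all genes tested. FOSB and NPAS4 passed the filter on low counts only because of their day 30 levels, so they entered the test only by being higher there. Both are among the 8 genes that passed with a fitted change of 2-fold or more, and both enter the median of the 9. EGR3 did not pass the filter. The other 7 genes had enough counts on both days, and 7 of 7 were higher. The 10 genes together made up 204, 210 and 174 CPM in day 30 replicates 1, 2 and 3, against 69.1, 58.4 and 60.3 CPM in day 0 replicates 1, 2 and 3. Without day 30 replicate 3, all 9 tested genes still passed as higher.

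**Figure D1:**
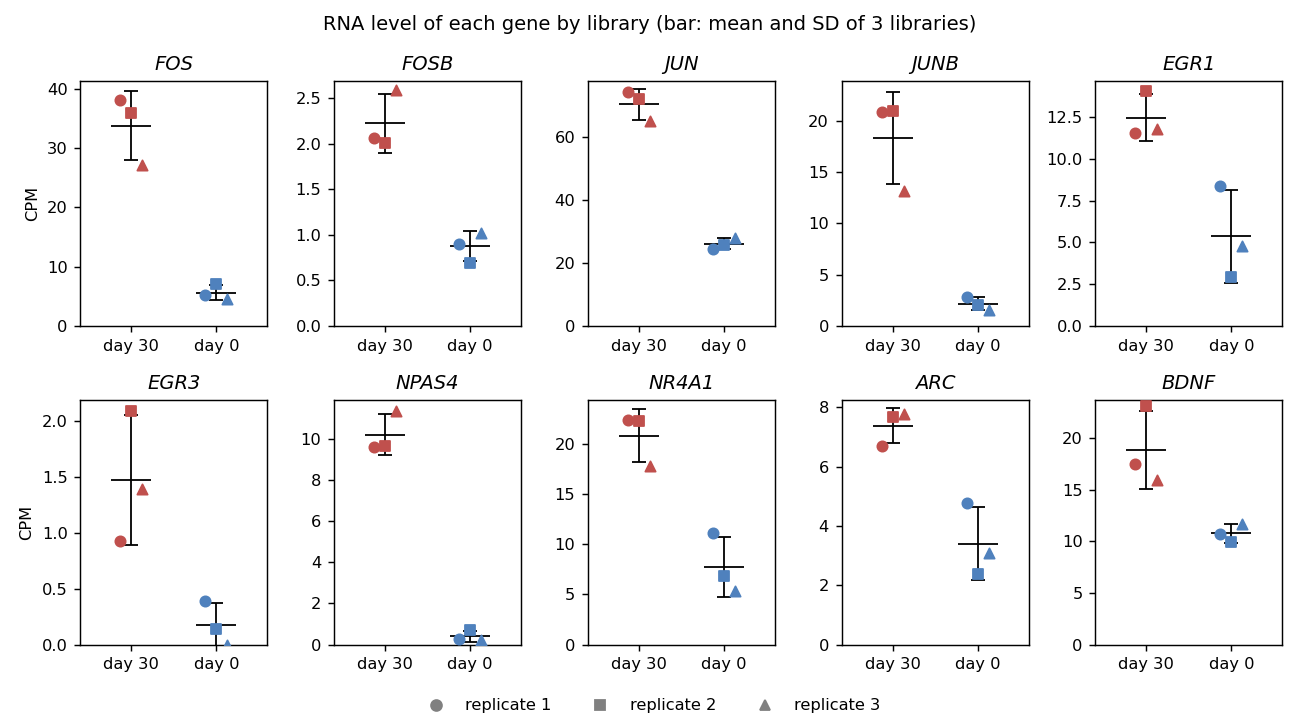
Level of each gene in CPM (linear axis from 0, scaled per gene) in the 3 day 30 libraries (red) and the 3 day 0 libraries (blue), with the mean and SD drawn as a line and bars and the replicate number as the shape of the point. In all 10 panels the lowest day 30 point lies above the highest day 0 point; for NPAS4 these are 9.60 CPM on day 30, against 0.697 CPM on day 0, and for EGR1 11.6 CPM on day 30, against 8.38 CPM on day 0.

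FOS and FOSB code for the FOS-type subunits of AP-1, which act mainly in pairs with a JUN partner. FOS (ENSG00000170345.10, chr14:75278774-75282230 in GENCODE 29 on hg38, + strand) had 38.1, 36.0 and 27.1 CPM in day 30 replicates 1, 2 and 3, against 5.28, 7.10 and 4.55 CPM in day 0 replicates 1, 2 and 3. The groups did not overlap, and the lowest of the day 30 values was in replicate 3. FOS was thus higher on day 30 by 2.51 ± 0.21 (SE) on the log2 scale, or 5.70-fold (edgeR adjusted p = 1.20e-06). Among all tested genes ranked by level per kilobase of exon, FOS stood at the 76.8th percentile on day 30 and at the 33.1st on day 0.

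FOSB (ENSG00000125740.14, chr19:45467995-45475179, + strand) had few reads, with 59 in the 3 day 30 libraries together and 21 in the 3 day 0 libraries. Its levels were 2.06, 2.01 and 2.59 CPM in day 30 replicates 1, 2 and 3, against 0.902, 0.697 and 1.02 CPM in day 0 replicates 1, 2 and 3. The groups did not overlap, although each library rests on 5 to 26 reads. The log2 change was 1.20 ± 0.35 (edgeR adjusted p = 0.00883), and the call was lost with DESeq2 (adjusted p = 0.0965).

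JUN and JUNB are JUN-type subunits, which can pair with FOS proteins or with each other, and JUNB is known as a weaker activator than JUN at many AP-1 sites. JUN (ENSG00000177606.8, chr1:58780788-58784327, - strand), a gene of 1 exon, had the highest level of the 10 per kilobase of exon on both days. It had 74.1, 71.8 and 64.8 CPM in day 30 replicates 1, 2 and 3, against 24.5, 25.6 and 28.0 CPM in day 0 replicates 1, 2 and 3. The replicates of JUN were close together on both days, with a coefficient of variation of 0.0688 on day 30, against 0.0682 on day 0. JUN was higher by 1.34 ± 0.13 on the log2 scale, or 2.53-fold (edgeR adjusted p = 4.28e-06).

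JUNB (ENSG00000171223.6, chr19:12791496-12793315, + strand) had 20.8, 21.0 and 13.2 CPM in day 30 replicates 1, 2 and 3, against 2.84, 2.09 and 1.59 CPM in day 0 replicates 1, 2 and 3. Day 30 replicate 3 was again the lowest of its day, and still several times above every day 0 library. The log2 change of 3.02 ± 0.28, or 8.08-fold, was the second largest of the 9 tested genes (edgeR adjusted p = 2.66e-06). HOOK2, a gene on the opposite strand whose exons overlap those of JUNB, moved the other way, at 13.8 ± 1.31 CPM on day 30, against 24.4 ± 6.14 CPM on day 0 (SD, n = 3 each; log2 change -0.91, edgeR adjusted p = 0.000751). The sources used here do not say whether the authors' counting used strand, so reads of the 2 genes may not be separate.

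Set beside the other members of their families per kilobase of exon, FOS and JUNB took a larger part of their family's RNA on day 30, as a description with no test. The FOS group summed to 29.3 ± 3.59 CPM per kilobase on day 30, against 8.58 ± 0.633 CPM per kilobase on day 0 (SD, n = 3 each). FOS held 35.6% ± 4.66 of that on day 30 and 20.2% ± 3.59 on day 0, and FOSB held 1.40% on day 30 and 1.85% on day 0. The main member of the group was FOSL2 on day 30 and FOSL1 on day 0. FOSL2, which codes for the FOS relative FRA2, held 60.0% on day 30 and 26.3% on day 0, while FOSL1, which codes for FRA1 and is known for its induction by growth factors, held 3.05% on day 30 and 51.7% on day 0. The JUN group summed to 94.0 ± 23.0 CPM per kilobase on day 30, against 33.2 ± 5.95 CPM per kilobase on day 0. JUND, a family member that is known for its steady expression, held the most on both days, 67.5% on day 30 and 73.7% on day 0. JUN held 21.8% on day 30 and 22.7% on day 0, so its share was close to level while its RNA was higher, and JUNB held 10.7% on day 30 and 3.60% on day 0.

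**Figure D2:**
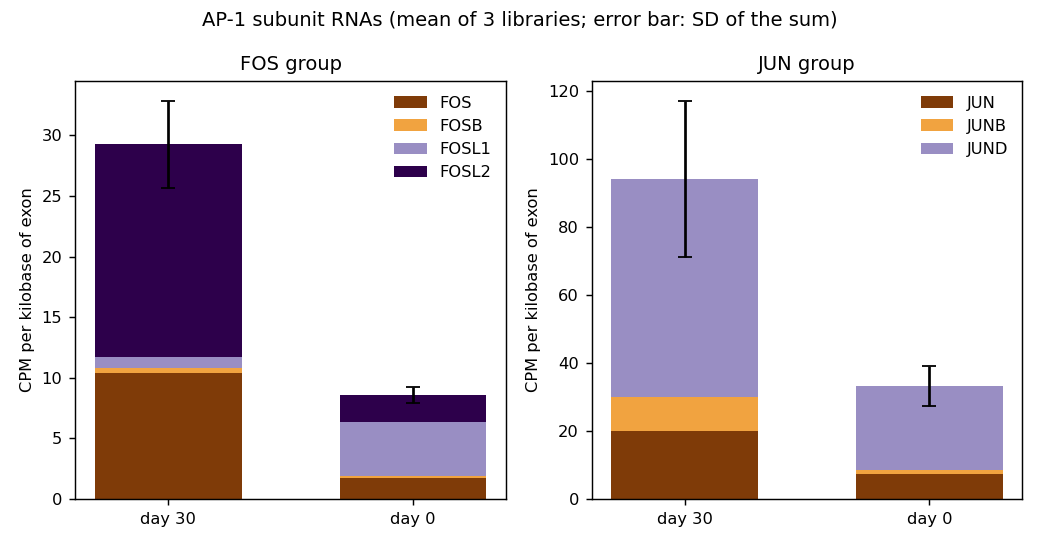
Stacked RNA levels of the FOS-type (left) and JUN-type (right) AP-1 subunits in CPM per kilobase of exon, as means of 3 libraries for day 30 and day 0, with an error bar for the SD of the summed level. The FOS group reaches 29.3 on day 30, mainly FOSL2, against 8.58 on day 0, mainly FOSL1, and the JUN group reaches 94.0 on day 30, against 33.2 on day 0, with JUND its main part on both days.

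EGR1 and EGR3 code for zinc finger factors that bind GC-rich sites, EGR1 being the broadly inducible member and EGR3 a relative known for muscle spindle development and for its induction by neuronal activity. EGR1 (ENSG00000120738.8, chr5:138465490-138469315, + strand) had 11.6, 14.1 and 11.8 CPM in day 30 replicates 1, 2 and 3, against 8.38, 2.93 and 4.78 CPM in day 0 replicates 1, 2 and 3. The groups did not overlap, but day 0 replicate 1 came near the day 30 level. The day 0 coefficient of variation of EGR1 was 0.517, where the median of genes of like level was 0.214 and counting alone gives 0.153. The log2 change was 1.14 ± 0.30, or 2.20-fold (edgeR adjusted p = 0.00516), and it ranged from 0.84 to 1.52 over the 12 other settings tried, all of them past the threshold.

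EGR3 (ENSG00000179388.9, chr8:22687659-22693302, - strand) had the fewest reads of the 10. It had 0.929, 2.09 and 1.40 CPM in day 30 replicates 1, 2 and 3, against 0.387, 0.139 and 0 CPM in day 0 replicates 1, 2 and 3. In reads this is 43 on day 30, against 4 on day 0, a ratio per total count of 9.23 with a 95% counting interval of 3.36 to 35.4. The interval covers counting error only. EGR3 passed when the filter on low counts was removed (edgeR log2 change 2.96, adjusted p = 9.73e-05) and with DESeq2 (adjusted p = 0.0125).

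NPAS4 (ENSG00000174576.10, chr11:66421004-66426707, + strand) had the largest difference of the 9 tested genes. It had 9.60, 9.67 and 11.4 CPM in day 30 replicates 1, 2 and 3, against 0.258, 0.697 and 0.227 CPM in day 0 replicates 1, 2 and 3. The day 30 libraries held 275 NPAS4 reads and the day 0 libraries 9, so the gene was close to undetected in the stem cells. Its ratio of summed reads per total count was 26.2 with a 95% counting interval of 13.6 to 58.0. The log2 change was 4.59 ± 0.37, or 24.1-fold (edgeR adjusted p = 8.20e-07), and it was 5.20 without day 0 replicate 2, which held 5 of the 9 day 0 reads. Ranked per kilobase among all tested genes, NPAS4 stood at the 38.0th percentile on day 30 and at the 5.86th on day 0.

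NR4A1 (ENSG00000123358.20, chr12:52022832-52059507, + strand), also called NUR77, is a nuclear receptor that acts without a known natural ligand and is induced in neurons, lymphocytes and endocrine cells. It had 22.4, 22.3 and 17.8 CPM in day 30 replicates 1, 2 and 3, against 11.1, 6.83 and 5.34 CPM in day 0 replicates 1, 2 and 3. The groups did not overlap, and day 0 replicate 1 was the highest of its day. NR4A1 was higher by 1.36 ± 0.23 on the log2 scale, or 2.57-fold (edgeR adjusted p = 0.000307).

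ARC (ENSG00000198576.4, chr8:142611044-142614472, - strand), the synaptic member of the set, had 6.71, 7.66 and 7.78 CPM in day 30 replicates 1, 2 and 3, against 4.77, 2.37 and 3.07 CPM in day 0 replicates 1, 2 and 3. The groups did not overlap, but the gap between day 30 replicate 1 and day 0 replicate 1 was smaller than the range of the day 0 libraries. ARC was higher by 1.02 ± 0.27 on the log2 scale, or 2.03-fold (edgeR adjusted p = 0.00519). Of the 10 genes, 5 were highest on day 0 in replicate 1: ARC, EGR1, NR4A1, JUNB and EGR3. The day 0 coefficients of variation were 0.363 for ARC, 0.517 for EGR1 and 0.384 for NR4A1. These were above the medians of genes of like level, 0.257 for ARC, 0.214 for EGR1 and 0.180 for NR4A1. EGR3, with few reads, was also above its median (1.12 against 0.884), and JUNB was below its own (0.288 against 0.298). FOS (0.233 against 0.209) and NPAS4 (0.666 against 0.600) were above theirs too, but were highest on day 0 in replicate 2.

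BDNF (ENSG00000176697.20, chr11:27654893-27722058, - strand) had the smallest change of the 9 tested genes. It had 17.4, 23.1 and 16.0 CPM in day 30 replicates 1, 2 and 3, against 10.7, 9.89 and 11.7 CPM in day 0 replicates 1, 2 and 3. The groups did not overlap, and BDNF RNA was also well detected in the stem cells, with means of 18.8 ± 3.74 CPM on day 30, against 10.8 ± 0.913 CPM on day 0 (SD, n = 3 each). The log2 change was 0.73 ± 0.19, or 1.65-fold (edgeR adjusted p = 0.00466). The added BDNF is protein and contributes no RNA reads. BDNF-AS, a transcript of the opposite strand whose exons overlap BDNF, was at 3.64 ± 1.33 CPM on day 30, against 2.16 ± 1.03 CPM on day 0 (SD, n = 3 each) and did not pass the test (log2 change 0.60, edgeR adjusted p = 0.183). BDNF transcripts that differ in their first exon are summed in 1 entry, so use of its activity-regulated promoters could not be read from these values.

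Levels can be compared between genes only per length, and on day 30 the order per kilobase of exon began with JUN at 19.8 ± 1.37 CPM per kilobase (SD, n = 3), followed by FOS at 10.4 ± 1.80 and JUNB at 10.1 ± 2.46. The ranges of FOS and JUNB overlapped, so these neighbours do not differ beyond their spread. EGR1 followed at 3.97 ± 0.446 CPM per kilobase, and then NPAS4 at 2.98 ± 0.292, NR4A1 at 2.85 ± 0.363, ARC at 2.47 ± 0.196 and BDNF at 2.43 ± 0.484, with the range of each of NR4A1, ARC and BDNF overlapping that of the gene before it. FOSB at 0.400 ± 0.0579 and EGR3 at 0.303 ± 0.120 CPM per kilobase were lowest and overlapped each other. On day 0, JUN led again at 7.35 ± 0.502 CPM per kilobase, and FOS, EGR1, BDNF, JUNB, ARC and NR4A1 lay between 1.74 and 1.06 CPM per kilobase with each overlapping its neighbour. NPAS4 was at 0.115 ± 0.0766 CPM per kilobase on day 0, beside FOSB at 0.157 ± 0.0298, and EGR3 was lowest at 0.0361 ± 0.0403. The range of NPAS4 overlapped that of NR4A1 on day 30 and lay below it on day 0.

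**Figure D3:**
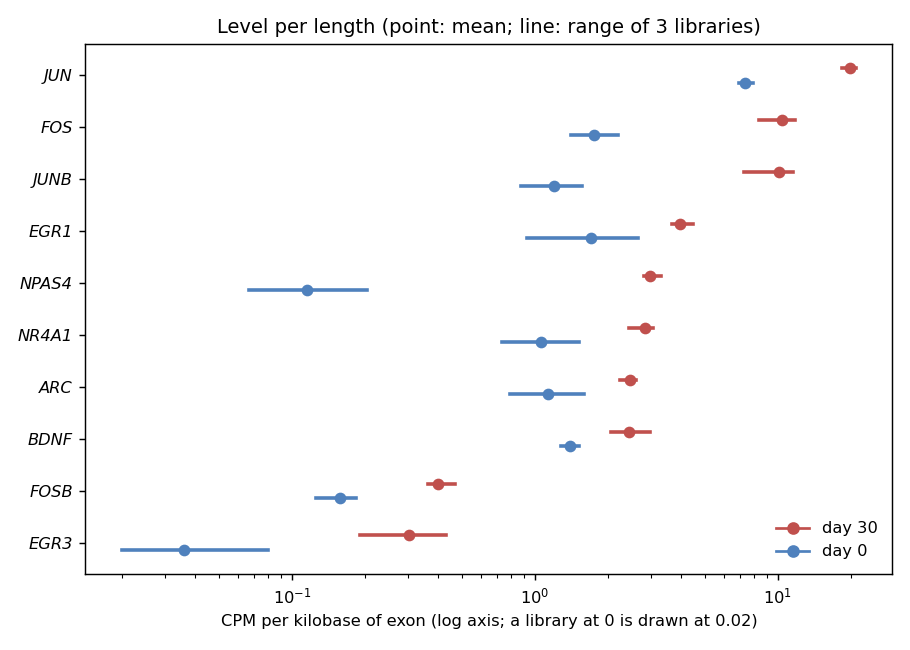
Level of each gene in CPM per kilobase of exon on a log axis, with genes from the highest day 30 mean at the top; points are means, lines the range of 3 libraries, red for day 30 and blue for day 0. JUN leads on both days (19.8 on day 30, 7.35 on day 0), and the widest distance between days is that of NPAS4 (2.98 on day 30, 0.115 on day 0).

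The genes share a compact structure that the choice of members did not use. Their median span in the annotation was 4.735 kilobases with a median of 3 exon blocks, against 36.6 kilobases and 11 blocks over 14140 tested protein-coding genes. The exceptions were NR4A1 and BDNF, which span 36.7 and 67.2 kilobases; the other 8 span less than 8 kilobases.

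Day 30 replicate 3 had the lowest level of its day for FOS, JUN, JUNB, NR4A1 and BDNF and the highest for FOSB, NPAS4 and ARC. For FOSB, NPAS4 and ARC the day 30 coefficients of variation, 0.145, 0.0981 and 0.0794, were below those that counting alone gives, 0.225, 0.104 and 0.122, so the order of their libraries cannot be read. Over all 6 libraries, the tested genes whose centred log2 CPM lay nearest to that of FOS were ZNF821, PAX5 and NAPB, at Euclidean distances of 0.188, 0.201 and 0.280 (log2 units). Those nearest to BDNF were AP5Z1, RAB3B and PDE6D, at 0.132, 0.210 and 0.212. With 3 libraries a day these distances rest mainly on the difference between days.

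The other genes of the AP-1 family did not all move with FOS and JUN. Of 11 relatives listed, 8 were tested, 5 were higher and 2 lower on day 30, and the median log2 change was 0.45. The shares over all genes tested were 39.8% higher and 36.8% lower. FOSL2 had the largest rise, with 126 ± 19.7 CPM on day 30, against 16.1 ± 4.34 CPM on day 0 (SD, n = 3 each; log2 change 2.86), and FOSL1 the largest fall, with 1.65 ± 0.327 CPM on day 30, against 8.36 ± 0.845 CPM on day 0 (log2 change -2.45). JUND was higher on day 30 by 1.30 on the log2 scale. ATF3, a stress-induced relative, passed narrowly (log2 change 0.40, edgeR adjusted p = 0.0485), and its call was lost in 9 of 12 other settings. The count of higher relatives was 3 with DESeq2, and also 3 when any 1 of day 0 replicates 1 and 2 and day 30 replicates 1 and 2 was left out.

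Among 6 relatives and partners of EGR1 and NR4A1, 3 were tested and 2 were higher, with a median log2 change of 1.22. Over all genes tested, 39.8% passed as higher. NR4A3, the NOR1 nuclear receptor, had 509 reads on day 30, against 3 on day 0, a ratio of 146 with a 95% counting interval of 49.6 to 709, so it was nearly absent from the stem cells, where NR4A1 was not. On day 30 NR4A3 was at 18.2 ± 1.23 CPM, and it entered the test only because of that level. NAB2, a corepressor of EGR proteins and itself an EGR1 target, was higher by 1.22 on the log2 scale, while its relative NAB1 did not pass (log2 change -0.08). The other 3 had too few reads to pass the filter. EGR2 had 15 reads on day 30, against 13.5 on day 0. EGR4 had 9 reads on day 30, against 0 on day 0, which is at least 2.58-fold higher on day 30 when day 0 is set to a floor of 3 counts over the group. With no filter EGR4 passed (edgeR adjusted p = 0.0335), and with DESeq2 it did not (adjusted p = 0.151). NR4A2 had 48 reads on day 30, against 19 on day 0. It was tested in 6 other settings and passed in 1 of them, without day 30 replicate 1 (log2 change 1.32, edgeR adjusted p = 0.0260). EGR2 did not pass with no filter (edgeR adjusted p = 0.923) or with DESeq2 (adjusted p = 0.935).

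The wider set of rapid response genes was split, as were all genes tested, of which 39.8% passed as higher and 36.8% as lower. A split of this kind is therefore not particular to the list. Of 33 listed, 29 were tested, 13 were higher, 9 lower and 7 did not pass, with a median log2 change of 0.16, near that of all genes. DUSP1 and DUSP4, phosphatases that switch off MAP kinases, were among the genes that rose: DUSP1 was at 44.5 ± 7.20 CPM on day 30, against 5.14 ± 1.52 CPM on day 0 (log2 change 3.04), and DUSP4 at 320 ± 36.7 CPM on day 30, against 7.21 ± 0.441 CPM on day 0 (log2 change 5.38, the largest rise of the list). BTG2, an antiproliferative gene, rose by 1.34 on the log2 scale. In the other direction, IER2, an immediate early gene of growth factor responses, was at 18.8 ± 1.91 CPM on day 30, against 64.6 ± 7.38 CPM on day 0 (log2 change -1.85), and ID1, a target of BMP signals, had the largest fall (log2 change -2.32). KLF4 did not pass, with 4.13 ± 1.78 CPM on day 30, against 2.90 ± 1.12 CPM on day 0 (edgeR adjusted p = 0.394).

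Genes known to respond to neuronal activity in a later wave were mostly higher. Of 16 listed, 15 were tested, 12 were higher and 2 lower, with a median log2 change of 2.36. Among all genes tested, 39.8% passed as higher and 36.8% as lower. Secretory genes were among the 12 that were higher. SCG2, a secretogranin, was at 1301 ± 159 CPM on day 30, against 5.32 ± 0.885 CPM on day 0 (log2 change 7.83). VGF, a secreted peptide precursor, was at 869 ± 147 CPM on day 30, against 13.5 ± 5.17 CPM on day 0. PCSK1, the convertase that cleaves prohormones such as POMC, was at 289 ± 16.9 CPM on day 30, against 1.72 ± 0.794 CPM on day 0. NRN1, which codes for neuritin, had 853 reads on day 30, against 0 on day 0, at least 244-fold higher on day 30 against the floor of 3 counts, and its fitted change was the largest of the list. NRN1 and PCSK1 passed the filter on low counts only because of their day 30 levels. SCG2, VGF and PCSK1 are also known as products of neuroendocrine cells. The part of cell type in their levels was not tested. NPTX2, a synaptic pentraxin, rose by 2.35 on the log2 scale. HOMER1, a postsynaptic scaffold gene with a short activity-induced form, was lower, at 49.2 ± 2.56 CPM on day 30, against 76.0 ± 6.45 CPM on day 0 (log2 change -0.72); its forms are summed in 1 entry. RASL11B had the largest fall, at a mean of 0.502 CPM on day 30, against 32.1 CPM on day 0 (log2 change -6.35, or -5.74 without day 30 replicate 2). It passed the filter on low counts only because of its day 0 level.

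The genes that carry the signal from calcium and kinases to these promoters changed in both directions. All 26 listed were tested, 17 were higher and 8 lower, with a median log2 change of 0.63. All genes tested also changed in both directions, 39.8% as higher and 36.8% as lower. SRF, which binds the CArG box, was at 23.1 ± 0.721 CPM on day 30, against 59.9 ± 1.82 CPM on day 0 (log2 change -1.47), and ELK3, an ETS-family cofactor of SRF, had the largest fall of the list (log2 change -2.34). CAMK2B, a calmodulin-dependent kinase of synapses, had 2695 reads on day 30, against 3 on day 0, a ratio of 772 with a 95% counting interval of 264 to 3744, with all 3 day 0 reads in replicate 3. CAMK4, the nuclear kinase that phosphorylates CREB, rose by 1.53 on the log2 scale, and MEF2C, a calcium-responsive factor, was at 123 ± 13.3 CPM on day 30, against 1.53 ± 0.496 CPM on day 0 (log2 change 6.21). CAMK2B, MEF2C and CAMK2A, which are among the 17 higher genes, passed the filter on low counts only because of their day 30 levels. CREB1 passed narrowly as lower, at 94.0 ± 5.52 CPM on day 30, against 106 ± 9.82 CPM on day 0 (log2 change -0.26, edgeR adjusted p = 0.0388), with overlapping ranges and a call lost in 7 of 12 other settings.

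Several receptors and handling proteins of BDNF had larger log2 changes than the 0.73 of BDNF. Of 15 listed neurotrophin genes other than BDNF, 11 were tested, 9 were higher and 2 lower, with a median log2 change of 3.53. Among all genes tested, 39.8% passed as higher and 36.8% as lower. NTRK2, which codes for the BDNF receptor TrkB, was at 320 ± 7.22 CPM on day 30, against 0.559 ± 0.444 CPM on day 0 (SD, n = 3 each). Its log2 change was 8.96 (edgeR adjusted p = 1.24e-09), or 9.77 without day 0 replicate 3. NTRK2 passed the filter on low counts only because of its day 30 level, so it entered the test only by being higher there. The same holds for SORCS3, and both are among the 9 higher genes and enter the median. NGFR, the receptor p75 that all neurotrophins bind, rose by 2.46 on the log2 scale. SORT1, which sorts BDNF into the regulated secretory path, passed narrowly (log2 change 0.39, edgeR adjusted p = 0.0298), and the call was lost in 4 of 12 other settings. CADPS2, a factor of dense-core vesicle release, had the largest fall (log2 change -2.19). NTF3, the related neurotrophin NT-3, had 26 reads on day 30, against 7 on day 0, and did not pass the filter; with no filter it did not pass the test (edgeR adjusted p = 0.0753).

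**Figure D4:**
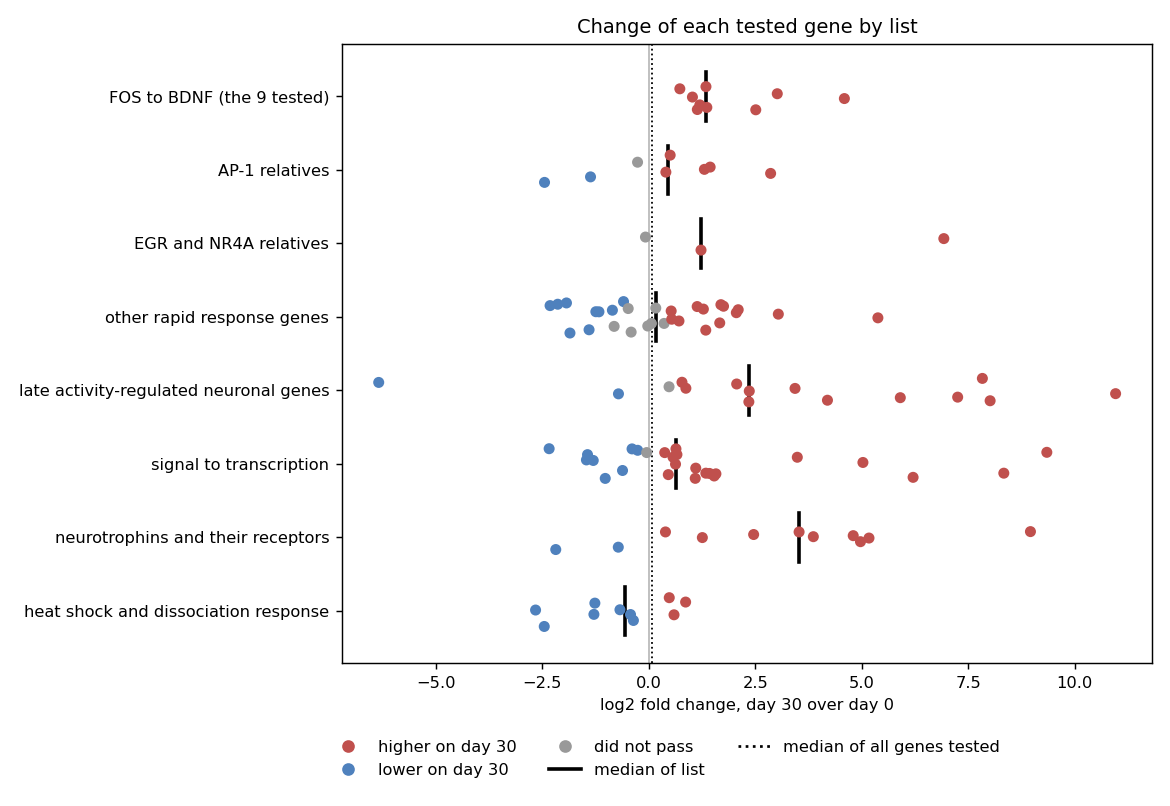
Log2 fold change of day 30 over day 0 for each tested gene (points) of the 9 genes from FOS to BDNF and of 7 lists of related genes, with the list's median as a bar and the median of all genes tested (0.08) as a dotted line; red passed as higher, blue as lower, grey did not pass. The 9 points of the top line all lie to the right of 0, while the AP-1 relatives and the other rapid response genes fall on both sides. Of all genes tested, 39.8% passed as higher and 36.8% as lower.

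Handling of cells can itself induce FOS, JUN and EGR1, so genes of the heat shock and dissociation response were set beside them. Of 12 listed, 10 were tested, 3 were higher and 7 lower on day 30, with a median log2 change of -0.56. The shares over all genes tested were 39.8% higher and 36.8% lower. HSPH1, a heat shock chaperone, had the largest rise (354 ± 29.5 CPM on day 30, 183 ± 17.7 CPM on day 0, log2 change 0.86), and HSPD1, the mitochondrial chaperonin, the largest fall (log2 change -2.66). The summed level of the 12 genes was 5595 to 6076 CPM on day 30 and 7889 to 10279 CPM on day 0. Its largest parts on day 0 were HSPA8 at 2527, HSP90AB1 at 2521, HSPD1 at 1476 and HSP90AA1 at 1342 CPM. The sum therefore mainly follows these genes, and whether they respond to handling in these cells was not tested. HSPA1A and HSPA1B, near-identical inducible genes among which reads cannot be assigned with certainty, had 1 read each on day 30 and 0.5 each on day 0. The part of handling in the levels of the 10 genes was not tested.

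**Figure D5:**
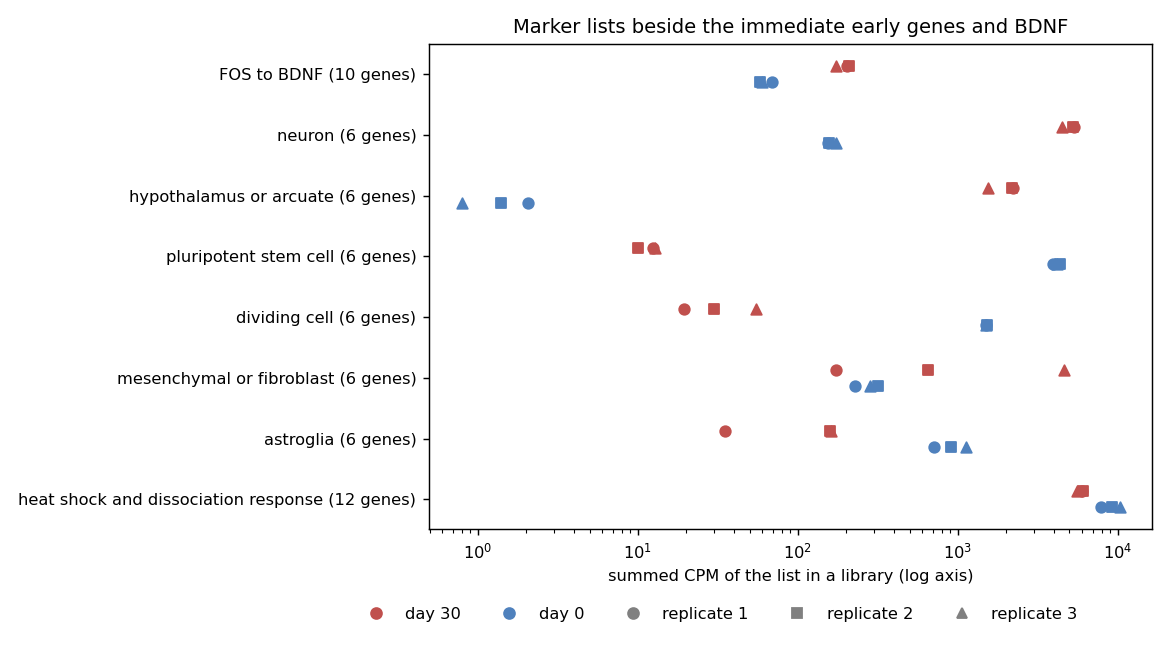
Summed level in CPM (log axis) of the 10 genes from FOS to BDNF, of marker lists and of the heat shock and dissociation list in each library, day 30 in red above day 0 in blue, with the replicate as the shape. The 10 genes sum to 174 to 210 CPM on day 30 and 58.4 to 69.1 CPM on day 0; the mesenchymal markers reach 4644 CPM in day 30 replicate 3 alone.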

How the data were processed

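Libraries were made from TRIzol-extracted RNA after removal of ribosomal RNA, with a stranded Illumina TruSeq kit, per the labels' protocols. The submitters' processing notes name FastQC 0.11.9 and hg38, and no source used here gives the aligner, the counting program or its strand setting. Each deposited value is an expected count per gene, a unit read from the values: 92.6% are whole, and all values of the 10 genes are. The plan assumed raw counts, so rounding to whole numbers preceded the tests. Columns not used numbered 0. Depth was 5013643 to 12924842 counts per library.

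IDs were matched to symbols for 42054 of 61853 entries, and to GENCODE 29 of the same build for 94.2%, for positions and the summed length of exons. The match ignored the version of the ID, which was the same for 35274 entries. Exon lengths and levels per kilobase may therefore differ from those of the release behind the counts. CPM divides by the total count. Tests were made in R 4.3.3 with edgeR 4.0.16 (quasi-likelihood, TMM, filterByExpr, 2-sided), on day 30 against day 0 over 18040 genes at once, with no p-value over a list alone. The SE is the absolute log2 change divided by the square root of F. A group at 0 was given a floor of 3 counts; 95% intervals of ratios are exact for counts, and intervals and floors cover counting error only. The procedure was tested on simulated data. Alternatives were DESeq2 1.42.0, other scalings and filters, the replicate number as a block, and leaving out each library.

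The members, the 7 related lists and the tests were chosen with earlier results of these data known. Named genes are the 10 members, 25 fixed genes, the largest passing rise and fall of each list among genes with ranges that do not overlap and a mean of at least 1 CPM, and the 3 genes most like FOS and BDNF. Of the marker lists not described in the report, that of neural progenitors had 2 of 4 tested genes lower on day 30, that of oligodendroglia 3 of 5 and that of endothelium 2 of 2, and 0 of these genes passed as higher. Among the lower genes, SOX10 of oligodendroglia and TEK of endothelium passed the filter on low counts only because of day 0. Over all genes tested, 36.8% passed as lower and 39.8% as higher.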

Additional observations from a re-analysis of the deposited data

How the results depend on the processing

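Each of the 9 tested genes kept its direction in all 12 alternatives. Of the 108 values, 107 stayed past the threshold and 1 did not, that of FOSB with DESeq2 (log2 change 1.19, adjusted p = 0.0965). Log2 changes ranged from 2.38 to 2.68 for FOS, 1.05 to 1.35 for FOSB, 1.23 to 1.43 for JUN, 2.84 to 3.22 for JUNB, 0.84 to 1.52 for EGR1, 4.31 to 5.20 for NPAS4, 0.81 to 1.26 for ARC, 1.15 to 1.64 for NR4A1 and 0.55 to 0.86 for BDNF. The number of the 10 genes that passed as higher was 9 or 10, being 10 where EGR3 was tested with no filter on low counts or without 1 library. Of 372 values of 31 other named genes, 352 stayed on their side of the threshold and 20 fell short of it (9 of ATF3, 7 of CREB1 and 4 of SORT1). Among AP-1 relatives, 3 were higher with DESeq2, and 3 to 5 when each library was left out in turn, while 4 were lower with no filter on low counts, where genes of few reads are tested. Over all genes, 6783 to 9147 passed as higher and 6243 to 7692 as lower, the largest counts with no filter. Scaling by total counts alone raised the median log2 change by 0.09. With the replicate block, 6921 genes were higher and 6415 lower, and all 9 tested genes still passed. Deviations of same-numbered libraries correlated at 0.0746, -0.0040 and -0.0517, and day 30 replicate 2 correlated best with day 0 replicate 3 (0.137), so the numbers were not taken as pairs. Genes with few reads, such as FOSB and EGR3, are limited by depth.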
